A study of Homo sapiens with 6 samples.

Results

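The genes described here encode voltage-gated and related ion channels: the pore-forming and accessory subunits of potassium, sodium, calcium and HCN channels. They were taken by gene name, as every row of the deposited array table named KCN, SCN, CACNA, CACNB, CACNG or HCN followed by the number or letters of a family member. The rule used no measured value. It took 137 of the 34692 rows, and each of the 137 names is a current symbol in the RefSeq table of GRCh38.p14. Of these, 36 passed the filter on detection p-values and were tested. A further 10, whose rows combine several probes, pass only when such rows are kept by their signal.

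The arrays compared 3 samples of isthmic organizer (IsO)-like cells with 3 samples of control neural cells. Every sample was made from H9, a widely used and established human embryonic stem cell line, so each group stands for 1 cell line. In both groups embryoid bodies were kept for the first 4 days with 5 µM dorsomorphin, an inhibitor of BMP receptors, and 10 µM SB431542, an inhibitor of activin and TGF-beta receptors, were plated on Matrigel on day 4 and were grown for 5 more days. For the IsO-like cells the protocol gives 100 ng/ml FGF8 together with CHIR99021, which inhibits GSK3 and so raises Wnt signalling, at 0 to 1.2 µM, and the concentration used for the arrayed samples is not among the labels. In the embryo the isthmic organizer lies at the border of midbrain and hindbrain and patterns both.

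Ion channels set the membrane potential and shape electrical signals. Background and inwardly rectifying potassium channels hold the resting potential of most cells, progenitors and epithelia included, while voltage-gated sodium, calcium and potassium channels carry the action potentials and calcium entry of neurons and muscle. Many voltage-gated channels appear only as a neuron matures, and some subunits, called modifiers or silent subunits, pass no current alone and alter the channels they join.

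The labels were checked against marker genes. Of 8 tested isthmic organizer genes, 5 were higher in IsO-like cells by limma's moderated test (Benjamini-Hochberg adjusted p below 0.05). EN1, a homeobox gene of the midbrain-hindbrain border, was at least 23.4-fold higher (adjusted p = 0.00105), and PAX5 was above background on no array. Of 12 tested neuronal markers, SYT4, NEFM and SYP were higher and STMN4 was lower. Among the genes called higher, EN1, EN2, PAX8, SYT4 and SYP were above background on 3 IsO arrays and no control array. These genes passed the detection filter through the IsO samples alone. With the replicate number as a block, 6 isthmic organizer genes were called higher and 1 lower, and 6 neuronal markers higher and 1 lower. Over all tested rows, 0.811% were called higher and 0.488% lower, and 3.16% and 2.39% with the block. Median intensities were 153, 147 and 157 on the IsO arrays and 144, 152 and 146 on the control arrays, and each array detected 13999 to 15232 rows. Precision is limited by the number of arrays.

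The arrays numbered 1 stood apart from the other 4 in both groups. Over all tested rows, the deviations of same-numbered IsO and control arrays from their group means correlated at 0.87, 0.39 and 0.65 for numbers 1, 2 and 3. Crossed arrays reached as much for numbers 2 and 3: IsO 3 with control 2 had 0.70 and IsO 2 with control 3 had 0.48. The correlations thus set the arrays numbered 1 apart and do not show that numbers 2 and 3 pair samples. Same-numbered arrays are called pairs below by their number alone. Like differences within these pairs describe the values and are not separate support for a result. In 33.8% of the 14548 tested rows both arrays numbered 1 lay below the other 4, and in 19.6% both lay above. The replicate number was therefore also fitted as a block, and the arrays numbered 2 and 3 were fitted alone.

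Most of these genes gave no signal above background in either group. Detected here means a detection p-value below 0.05, which sets a gene's signal against the negative controls of the same array. On no array were 83 of the 137 detected, which is 60.6%, against 45.7% of all rows, and on all 6 arrays 20 were, which is 14.6%, against 31.8% of all rows. Detection p-values of rows that combine several probes are on a stricter scale, and 61 of these genes had such a row. Among rows of 1 probe, 40 of 76 channel genes were detected on no array, which is 52.6%, against 46.4% of all such rows. The 3 IsO arrays detected 35, 36 and 30 of these genes and the 3 control arrays 32, 36 and 36. The mean was 33.7 ± 3.21 in IsO-like cells and 34.7 ± 2.31 in control cells (SD, n = 3 each), a difference smaller than the spread within either group (exact permutation test, two-sided, p = 0.7, where the smallest p possible is 0.1). The bar plot of detection by family shows how the genes were distributed.

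**Figure D1:**
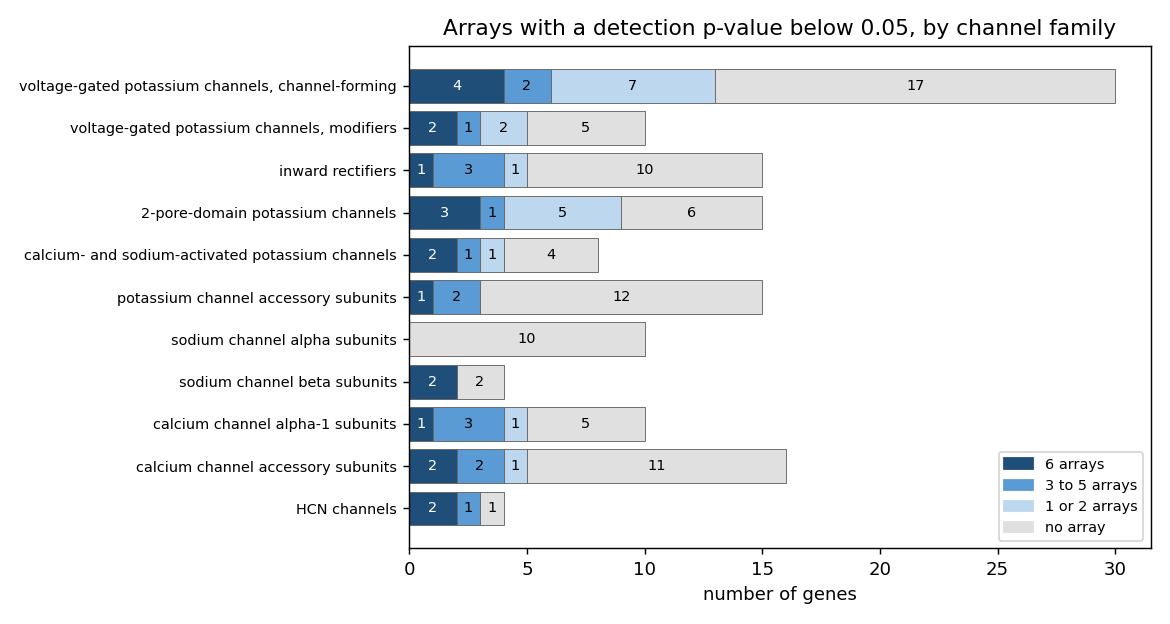
Ion channel genes by family and by the number of the 6 arrays on which they had a detection p-value below 0.05 (horizontal axis, number of genes; bar segments, number of arrays). All 10 sodium channel alpha subunits were detected on no array, and 20 of the 137 genes were detected on all 6.

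Between IsO-like and control cells 1 tested channel gene was called in the fit without the block (limma adjusted p below 0.05). A gene not called is not thereby shown to be unchanged. KCNJ13, an inwardly rectifying potassium channel known from the apical membrane of choroid plexus and retinal pigment epithelium, was detected in no IsO sample and in all 3 control samples, and its level in IsO-like cells was lower by at least 5.28-fold. It thus passed the detection filter through the control samples alone. With no filter on dim rows its limma adjusted p was 0.0477. No tested gene was called higher. KCNJ13 is 1 of 36 genes, or 2.78%, where 1.3% of all 14548 tested rows were called in either direction, 0.811% higher and 0.488% lower. With the replicate block 4 of the 36 were called, which is 11.1%, against 5.55% of all rows. KCNF1 was called higher (3.16% of all rows were), and KCNJ13, KCNK12 and KCNS3 lower (2.39% of all rows were). The arrays numbered 2 and 3 alone gave 3 of 36, or 8.33%, against 2.4% of all rows: KCNF1, KCNJ13 and KCNK12. In 10 of the 36 genes, or 27.8%, the 3 IsO samples and the 3 control samples did not overlap, against 15.4% of all tested rows. Of the 10, 5 lay higher in IsO-like cells (8.2% of all rows did) and 5 lower (7.24% did). KCNJ13, CACNA1E and CACNA1I are among the 10, and each passed the filter through 1 group alone. The median difference of the 36 genes was 0.08 (log2, IsO minus control), and that of all tested rows was -0.01. At an unadjusted p below 0.05 there were 5 of the 36, beside 1443 of all 14548 tested rows.

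Of the 4 genes called with the replicate block, KCNJ13 alone was also called without it. The 250 bases before the RefSeq start sites of those with an entry are shown (GRCh38.p14, written 5′ to 3′ along the gene's strand). They lie at chr2:232776566-232776815 on the minus strand for KCNJ13, at chr2:10911684-10911933 on the plus strand for KCNF1, and at chr2:17877597-17877846 and chr2:17878417-17878666 on the plus strand for the 2 start sites of KCNS3. KCNK12, the fourth, is named only. Capitals mark exact matches, on either strand, to 4 motifs: CTTTGA, the core of the TCF/LEF site through which Wnt signalling acts, TAATCC, the core of the OTX site, TATAAA, the TATA box, and GGGCGG, the GC box.
KCNJ13: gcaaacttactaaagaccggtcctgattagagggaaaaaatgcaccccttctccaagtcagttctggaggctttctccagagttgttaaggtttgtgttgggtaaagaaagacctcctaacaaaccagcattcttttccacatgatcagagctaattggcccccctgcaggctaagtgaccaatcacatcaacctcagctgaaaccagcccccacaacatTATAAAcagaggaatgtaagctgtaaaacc
KCNF1: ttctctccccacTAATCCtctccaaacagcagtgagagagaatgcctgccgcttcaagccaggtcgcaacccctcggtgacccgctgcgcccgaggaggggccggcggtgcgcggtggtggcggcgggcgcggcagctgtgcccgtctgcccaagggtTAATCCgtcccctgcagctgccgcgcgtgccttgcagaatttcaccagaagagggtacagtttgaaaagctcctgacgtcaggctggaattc
KCNS3 upstream start: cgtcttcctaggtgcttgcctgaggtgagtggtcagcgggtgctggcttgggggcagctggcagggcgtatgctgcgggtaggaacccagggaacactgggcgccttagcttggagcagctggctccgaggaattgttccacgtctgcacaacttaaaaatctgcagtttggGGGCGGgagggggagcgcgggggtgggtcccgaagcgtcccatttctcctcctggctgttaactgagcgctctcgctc
KCNS3 downstream start: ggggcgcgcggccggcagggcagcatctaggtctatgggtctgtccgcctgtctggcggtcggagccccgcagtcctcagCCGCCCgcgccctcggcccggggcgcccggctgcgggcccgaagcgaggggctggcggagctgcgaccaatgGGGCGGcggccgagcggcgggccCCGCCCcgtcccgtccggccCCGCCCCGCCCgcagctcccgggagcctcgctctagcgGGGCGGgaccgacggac
The KCNJ13 window held TATAAA at 30 bases before the start, had 45.2% G and C and held 1 CpG, where the median of all 35116 promoter windows was 58% and 11. The KCNF1 window held TAATCC at 238 and at 92 bases before the start, 63.6% G and C and 20 CpG. For KCNS3 the upstream window held GGGCGG once, 78 bases before the start, and the downstream window held it 6 times over both strands, with 1 overlapping pair. CTTTGA was in none of the 4 windows. Of all windows, 11.2% held CTTTGA, 5.62% TAATCC, 10.7% TATAAA and 42.6% GGGCGG.

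**Figure D2:**
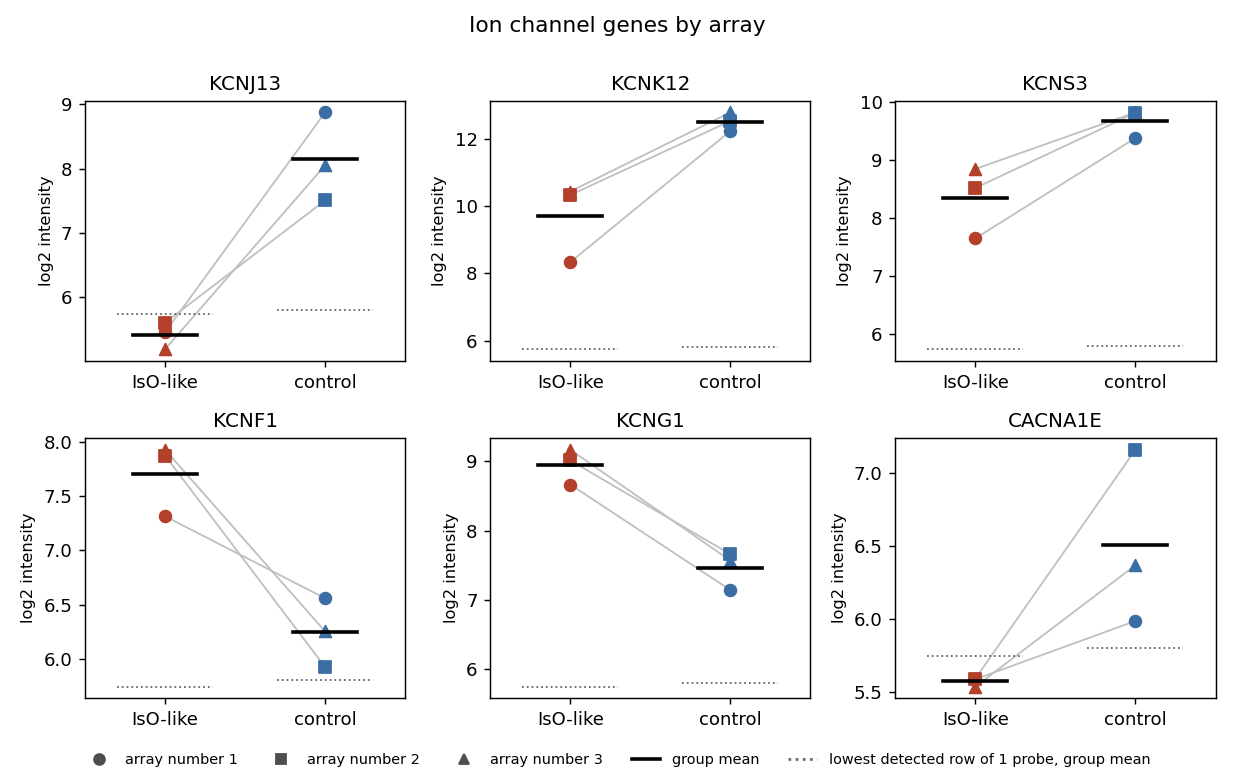
Background-corrected, quantile-normalised log2 intensity (vertical axis) of 6 channel genes on each array, IsO samples left and control samples right. Symbols give the array number, grey lines join arrays of the same number, black bars are group means, and the dotted line is the mean over a group's arrays of the lowest level of a detected 1-probe row; KCNJ13 lay under it in all 3 IsO samples and over it in all 3 control samples.

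Among voltage-gated potassium channel genes whose subunits form channels alone, 6 of 30 were tested, and none was called by limma under either fit (0 of 6 at an unadjusted p below 0.05). KCNA5 and KCND1 were detected on all 6 arrays. KCND1, which forms fast-inactivating A-type channels, had 6.12, 7.20 and 7.24 in IsO-like cells, against 6.31, 8.31 and 8.11 in control cells. Its difference of -0.72 ± 0.59 (SE) was not called (limma adjusted p = 0.875), and same-numbered IsO and control arrays differed by -0.19, -1.10 and -0.87. In each of the 3 pairs the IsO sample was the lower one, and the adjusted p was 0.124 with the block. For KCNA5, a delayed rectifier, the 3 pairs differed by -0.51, -0.66 and -0.18, again with the IsO sample lower in each, and the block gave an adjusted p of 0.155.

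KCNH8, an ether-a-go-go-like channel of the nervous system, did not overlap between the groups, with log2 levels of 5.86, 5.95 and 5.44 in IsO-like cells and 6.55, 6.06 and 6.02 in control cells. The difference of -0.46 ± 0.24 (SE) was not called (limma adjusted p = 0.67), and the gene was detected on 2 IsO and 3 control arrays. KCNB2, a delayed rectifier and a usual partner of modifier subunits, differed by 0.09, with overlapping groups. KCNH6, an erg-type channel, has a row of several probes and was not tested: its intensities were 1876, 2184 and 2412 in IsO-like cells, against 2053, 3744 and 3119 in control cells, with detection p-values of 0.0849 to 0.401. Kept by its signal, it differed by -0.52 ± 0.25 (SE; limma adjusted p = 0.615, and 0.0774 with the block). KCNQ3, a subunit of the M-channel that restrains repetitive firing, was detected on 2 control arrays only, at intensities of 145, 130 and 164 in IsO-like cells and 148, 243 and 257 in control cells. The control array numbered 1 lay among the IsO arrays, and KCNQ3 fell under the filter. KCNH6 and KCNQ3 are named here because of their values.

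Modifier subunits of voltage-gated potassium channels held 1 gene called higher and 1 called lower, of 3 tested, with the replicate block (3.16% and 2.39% of all rows), and none in the fit without it. They join delayed rectifier channels and shift their opening and closing. KCNF1 had intensities of 324, 321 and 342 in IsO-like cells, against 195, 170 and 180 in control cells, and log2 levels of 7.32, 7.88 and 7.93, against 6.56, 5.92 and 6.25. All IsO samples lay above all control samples. The difference of 1.46 ± 0.26 (SE), a 2.75-fold higher level in IsO-like cells, had an adjusted p of 0.0643 in limma, and of 0.0457 with the replicate block. From the arrays numbered 2 and 3 only, the difference was 1.81 (adjusted p = 0.0241), and with the background estimated from all rows it was 0.09.

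KCNS3 lay in the other direction, with intensities of 382, 438 and 549 in IsO-like cells, against 709, 1036 and 992 in control cells. On the log2 scale these were 7.65, 8.52 and 8.84 in IsO-like cells and 9.37, 9.80 and 9.81 in control cells, with no overlap. The difference of -1.33 ± 0.34 (SE) was not called (limma adjusted p = 0.183), and was called with the replicate block (adjusted p = 0.0258). The 3 pairs of same-numbered arrays differed by -1.72, -1.29 and -0.97. From the arrays numbered 2 and 3 only it was -1.13 (adjusted p = 0.0589). KCNS1, the third tested modifier, differed by 0.24 with overlapping groups (adjusted p = 0.884).

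KCNG1, another modifier, has a row of several probes that only 2 arrays detected, so it was not among the 36. It is named because of its values. Intensities were 638, 573 and 670 in IsO-like cells, against 241, 304 and 285 in control cells, and log2 levels were 8.67, 9.02 and 9.17, against 7.14, 7.66 and 7.57. Every IsO sample lay above every control sample, and the 3 pairs differed by 1.53, 1.36 and 1.60. When rows of several probes were also kept by their signal, 46 channel genes were tested and KCNG1 was called beside KCNJ13, 2 of 46 or 4.35%, against 1.31% of 15544 rows. Its difference there was 1.49 ± 0.23 (SE; limma adjusted p = 0.0421), and the adjusted p was 0.0101 with the block. With that filter and the block together 5 of 46 were called, which is 10.9%, against 6.02% of all rows: the 4 of the blocked fit and KCNG1. The other 6 modifier genes were detected on at most 1 array.

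Inward rectifiers had 15 genes, of which 10 were detected on no array and 4 were tested. KCNJ13 had intensities of 149, 152 and 139 in IsO-like cells, against 539, 284 and 355 in control cells. Detection p-values were 0.104, 0.0831 and 0.335 in IsO-like cells and at most 0.0026 in control cells. On the log2 scale the levels were 5.46, 5.61 and 5.20 in IsO-like cells, against 8.87, 7.51 and 8.05 in control cells. Every control sample was above background and every IsO sample was not, so the fold is a lower bound. The means were 5.42 ± 0.21 in IsO-like cells and 8.14 ± 0.69 in control cells (SD, n = 3 each), and the difference of -2.72 ± 0.36 (SE; 95% interval -3.58 to -1.86) was called (limma adjusted p = 0.0246, and 0.0179 with the replicate block). The bound of at least 5.28-fold lower sets the control mean against the lowest level of a detected 1-probe row, and it was 2.48-fold with no background correction and 1.12-fold with the background from all rows. The gene was not called without that correction (adjusted p = 0.0648), in the authors' processed table (0.066), with the background from all rows (0.35), or when IsO sample 1, 2 or 3 or control sample 3 was left out (0.06, 0.128, 0.107 and 0.126).

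In these bulk samples fewer cells of a type and less RNA per cell cannot be told apart. KCNJ13 marks choroid plexus and retinal pigment epithelium, so markers of both were read beside it. Of 12 genes of choroid plexus and roof plate, AQP1, HTR2C, KL and PRLR were above background on no array, and TTR, the abundant choroid plexus transcript, on 1 IsO array and no control array. The summed level of the list, in background-corrected intensity, was 17322 to 21071 in IsO-like cells and 1932 to 5330 in control cells, of which MSX1 alone gave 15603 to 18738 in IsO-like cells and 1179 to 4461 in control cells. The 8 choroid plexus markers of the list, without its roof plate genes, summed to 331 to 434 in IsO-like cells and 274 to 500 in control cells, and these ranges overlap. Of the 6 tested, 2 were called: MSX1 and MSX2, roof plate and BMP-response genes, were higher in IsO-like cells by 2.99 (limma adjusted p = 0.0428) and 3.54 (0.0102). With the block 3 of the 6 were called higher, where 3.16% of all rows were. FOLR1, a folate receptor of choroid plexus, had log2 levels of 6.10, 6.16 and 5.78 in IsO-like cells, against 7.14, 7.62 and 7.54 in control cells. It fell under the filter. Of the tested choroid plexus markers, CLIC6 differed by 0.87 and WFDC2 by -0.02, neither called (limma adjusted p = 0.706 and 0.997). Of 9 pigment epithelium genes with a row, MITF, TYR, TYRP1, DCT and RPE65 were above background on no array, and the summed level was 410 to 795 in IsO-like cells and 718 to 961 in control cells. Neither of the 2 tested, RLBP1 and SERPINF1, was called. The part of such cells in the KCNJ13 result was not tested.

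The other inward rectifiers were not called. KCNJ8, a pore subunit of ATP-sensitive channels, had log2 levels of 6.62, 6.58 and 7.04 in IsO-like cells, against 6.43, 6.40 and 5.71 in control cells. The groups did not overlap, and the difference of 0.57 ± 0.27 (SE) had an adjusted p of 0.598. KCNJ10, the inward rectifier of glia, was detected on all 6 arrays and differed by 0.09 (95% interval -0.77 to 0.96). KCNJ16, its partner subunit, differed by -0.26 (adjusted p = 0.845), with 1 IsO and 2 control arrays detecting it.

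The 2-pore-domain potassium channels carry background currents, and 4 of 15 were tested. KCNK12, whose subunit gives little current on its own, was detected in both groups, with lower values in IsO-like cells. Its intensities were 531, 1284 and 1526 in IsO-like cells, against 4282, 6416 and 7428 in control cells. Log2 levels were 8.34, 10.33 and 10.44 in IsO-like cells and 12.24, 12.54 and 12.80 in control cells. The gene was detected on every array, no IsO sample reached a control sample, and IsO sample 1 lay well below the other 2. The difference of -2.82 ± 0.57 (SE; 95% interval -4.19 to -1.46), a 7.07-fold lower mean, had an adjusted p of 0.0926 in limma, and of 0.0231 with the block. Without IsO sample 1 it was -2.14 (adjusted p = 0.0224), and from the arrays numbered 2 and 3 only it was -2.28 (0.012).

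KCNK5, a background channel opened by alkaline pH, had log2 levels of 8.41, 7.62 and 7.64 in IsO-like cells, against 7.25, 7.17 and 7.41 in control cells. The groups did not overlap, with IsO sample 1 well above the other 5 samples, and the difference of 0.62 ± 0.26 (SE) was not called (limma adjusted p = 0.521). KCNK3, an acid-sensitive background channel, differed by 0.35 ± 0.24 (SE), and KCNK4, a channel opened by heat and membrane stretch, by -0.06 ± 0.28 (SE), both with overlapping groups. Of the 11 untested genes, 6 were detected on no array. Once rows of several probes were also read by signal, KCNK6 was above background on no IsO array and 2 control arrays, and KCNK1 on 2 IsO arrays and no control array.

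Calcium- and sodium-activated potassium channels link potassium outflow to calcium or sodium entry. Of 8 genes KCNN1, KCNN2 and KCNN4 were tested, with differences of 0.17, 0.32 and -0.06, and all 3 overlapped between the groups (lowest adjusted p = 0.888). KCNMA1, the pore of the large-conductance channel, was detected on no array. Its beta subunit KCNMB4, the form of brain, was detected on all 6, with log2 levels of 10.02, 10.16 and 10.27 in IsO-like cells and 10.25, 10.37 and 10.26 in control cells. That difference of -0.14 had a 95% interval of -0.55 to 0.27. Of the 15 potassium channel accessory genes, KCNAB2 and KCNMB1 were the other two tested, neither was called, and 12 were detected on no array.

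All 10 genes for sodium channel alpha subunits, the pores of the fast sodium current, were detected on no array. Their intensities ran from 88.4 to 154 over the 6 arrays, and the lowest detection p-value was 0.117. Levels below an array's background have no order, so no difference between IsO-like and control cells was detectable. Of the 4 beta subunits, which anchor the pore and alter its gating, SCN2B and SCN4B were detected on all 6 arrays. SCN2B had log2 levels of 7.28, 6.16 and 7.39 in IsO-like cells, against 6.54, 6.36 and 6.54 in control cells, and SCN4B had 7.04, 6.05 and 6.68, against 7.17, 6.98 and 6.51. IsO sample 2 was the lowest of the 6 for both genes, and the groups overlapped (adjusted p = 0.844 and 0.921).

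Calcium channel alpha-1 subunits form the pore through which calcium enters on depolarisation, and 4 of 10 were tested. CACNA1E, the pore of the R-type current, had intensities of 157, 151 and 158 in IsO-like cells, against 164, 249 and 186 in control cells. It was detected on 3 control arrays and no IsO array, and the groups did not overlap, though control sample 1 lay close to the IsO samples. Log2 levels were 5.59, 5.59 and 5.53 in IsO-like cells and 5.98, 7.16 and 6.37 in control cells. The difference of -0.93 ± 0.31 (SE) was not called (limma adjusted p = 0.339, and 0.102 with the block), and the bound was at least 1.69-fold lower. That bound was 1.27-fold with no background correction and 1.02-fold with the background from all rows.

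CACNA1I, a low-voltage-activated T-type pore, was the reverse case, detected on 3 IsO arrays and no control array. Its log2 levels of 5.76, 5.84 and 5.59 in IsO-like cells and 5.34, 5.48 and 5.36 in control cells did not overlap, but all were near background, and the difference of 0.34 ± 0.17 (SE) was not called (limma adjusted p = 0.652). CACNA1H, another T-type pore, had 9.79, 10.62 and 10.76 in IsO-like cells, against 10.31, 11.36 and 11.50 in control cells. Both arrays numbered 1 were the lowest, the groups overlapped, and the 3 pairs differed by -0.52, -0.74 and -0.74. Its difference of -0.67 ± 0.41 (SE) had an adjusted p of 0.759 in limma, and of 0.0516 with the block. CACNA1G, also a T-type pore, has a row of several probes that no array detected, so it was not tested. Its log2 levels were 6.13, 6.17 and 6.52 in IsO-like cells, against 5.17, 5.70 and 5.93 in control cells, with no overlap. Kept by its signal, it differed by 0.67 ± 0.25 (SE; limma adjusted p = 0.423, and 0.0712 with the block). CACNA1S, the pore of skeletal muscle, differed by 0.08 ± 0.28 (SE). Of 10 genes of cardiac and skeletal muscle, 7 were above background on no array, and the summed level was 324 to 381 in IsO-like cells and 420 to 849 in control cells. The brightest of them on every array was ACTC1, which was not tested. Its log2 levels were 7.41, 7.12 and 6.86 in IsO-like cells, against 7.63, 9.31 and 9.29 in control cells.

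Accessory calcium channel subunits control the delivery and gating of the pores, and 4 of 16 were tested, none called. CACNB3, a cytosolic beta subunit that carries pores to the membrane, had log2 levels of 12.32, 12.26 and 12.29 in IsO-like cells, against 11.87, 12.21 and 12.23 in control cells. All IsO samples lay above all control samples, by little except for control sample 1, and the difference was 0.19 (95% interval -0.25 to 0.63; limma adjusted p = 0.908). CACNG1, CACNG4 and CACNG6, gamma subunits, differed by 0.14, 0.24 and -0.01, with overlapping groups.

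HCN channels open on hyperpolarisation and give pacemaker currents. HCN3 had log2 levels of 8.04, 9.04 and 9.54 in IsO-like cells, against 7.82, 9.28 and 9.23 in control cells, and both arrays numbered 1 were the lowest. The difference was 0.10 ± 0.53 (SE), and the standard error was 0.16 with the block. HCN4 was detected on all 6 arrays and differed by 0.17, and HCN2 was detected on 1 IsO and 3 control arrays and differed by -0.17.

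**Figure D3:**
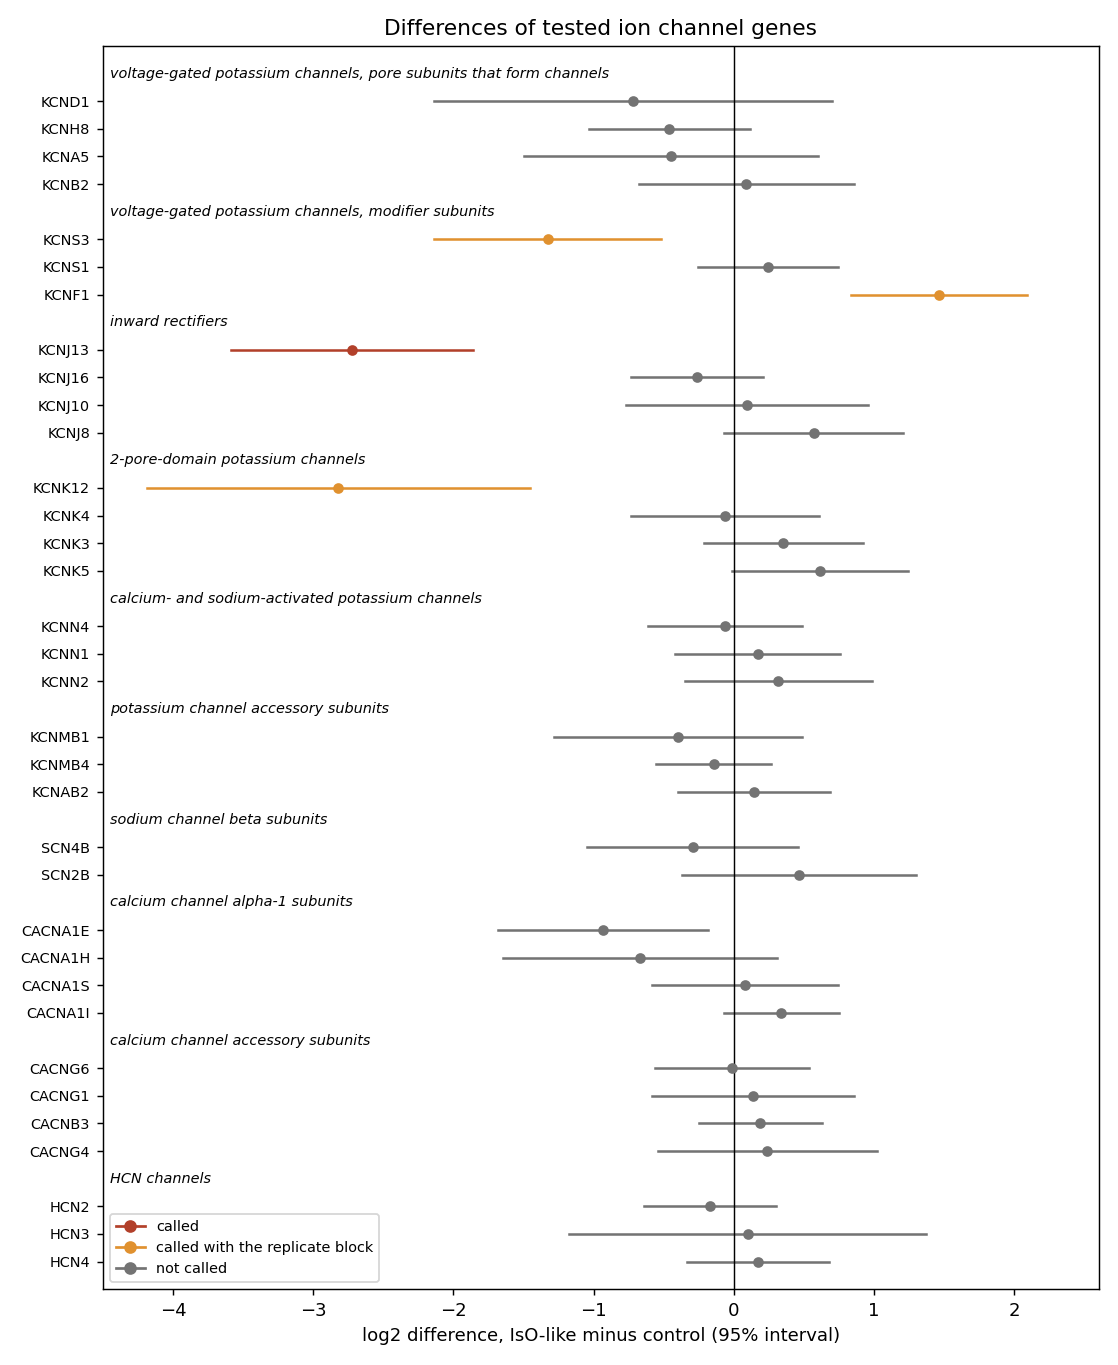
Log2 difference, IsO minus control, of 34 tested channel genes (horizontal axis) with 95% confidence intervals from limma, grouped by family; colours mark genes called, called with the replicate block, and not called. KCNJ13 at -2.72 is the one gene called, and KCNK12 at -2.82, KCNS3 at -1.33 and KCNF1 at 1.46 were called with the block.

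The precision of these differences varied by gene. The 95% interval reached 0.41 to 1.42 log2 units to either side of the difference, with a median of 0.66, and for 20 of the 36 genes it lay within -1 to 1. Of the 36, 27 differed by less than 0.5, which is 75%, against 82% of all tested rows.

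The arrays numbered 1 lay apart in channel genes at about the share seen over all rows. In 11 of the 36, or 30.6%, both arrays numbered 1 lay below the other 4, against 33.8% of all tested rows. In the mean of arrays numbered 1 minus the mean of the other 4, KCND1 was furthest from 0 of these, at -1.50 log2 units. HCN3 had -1.34, KCNA5 -1.09 and CACNA1H -1.01. SCN4B was the only one of the 36 with both arrays numbered 1 above the other 4, at 0.55. Neural crest genes were also read by array: SOX10 had log2 levels of 12.69, 10.02 and 9.92 in IsO-like cells, against 10.41, 9.06 and 8.13 in control cells, with array 1 the highest in each group. Their part in the channel values was not tested.

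**Figure D4:**
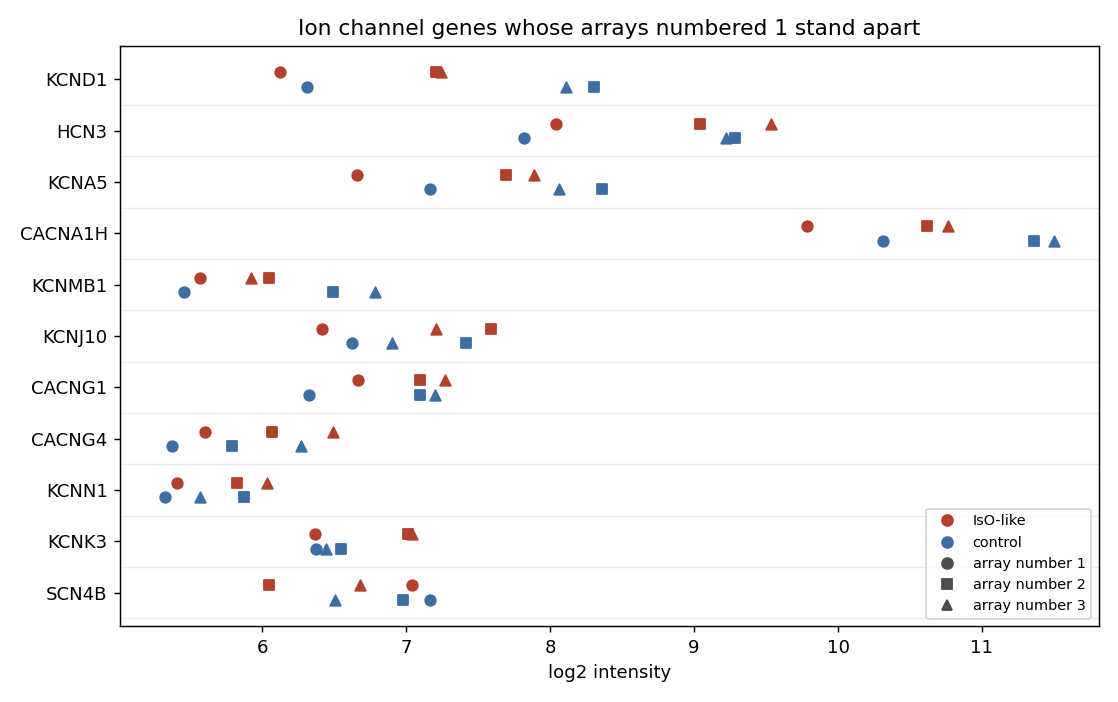
Log2 intensity (horizontal axis) of 11 tested channel genes whose arrays numbered 1 lie apart from the other 4 arrays, IsO and control samples shown by colour and array number by symbol. In 10 genes both arrays numbered 1 are the lowest, and in SCN4B they are the highest.

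Genes that work beside these channels were counted from lists. Of 20 partners and anchors of channels, 12 were tested and 1, FGF12, was higher in IsO-like cells, where 1.3% of all tested rows were called. FGF12, an intracellular FGF family protein that binds sodium channel pores, had log2 levels of 6.68, 6.64 and 6.59 in IsO-like cells, against 5.34, 5.37 and 5.49 in control cells, a difference of 1.23 ± 0.16 (SE; limma adjusted p = 0.0246). The IsO values were all above the control values, and the gene was above background on 1 control array. With the block LGI1, a secreted protein tied to KCNA channels, and FGF11 were also called higher, by 1.67 and 0.95 (limma adjusted p = 0.0175 and 0.029). STAC, an adaptor of calcium channels, was called lower, at -1.08 (adjusted p = 0.0213). That makes 4 of 12, where the block called 5.55% of all rows. The median difference of the 12 was 0.17.

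Of 47 other cation and anion channels, 19 were tested and none was called by limma under either fit, with a median of -0.07 and 0 at an unadjusted p below 0.05.

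Among 14 neural progenitor genes, 13 of them tested, SOX2 was lower in IsO-like cells, at -1.43 (limma adjusted p = 0.039). With the block 4 were called lower, where 2.39% of all rows were: PAX6 (-2.82, limma adjusted p = 0.0025), HES5, SOX2 and NES. The summed level of the 14 genes was 93626 to 103919 in IsO-like cells and 134308 to 149400 in control cells. HES5, the brightest of them on the control arrays, had log2 levels of 13.51, 14.35 and 14.64 in IsO-like cells, against 15.21, 15.56 and 15.70. VIM, also bright, differed by 0.54 in the other direction and was not called. The 17 neuronal genes summed to 24116 to 28854 in IsO-like cells and 14939 to 18538 in control cells. TUBB3, the brightest of the 17 on every array, weighed most in these sums. It differed by 0.51 and was not called (limma adjusted p = 0.47, and 0.101 with the block). The median difference of the 12 tested neuronal genes was 1.27. Of 11 neural crest genes, 9 were tested and TWIST1 was higher (1.97, limma adjusted p = 0.0457). With the block 4 were called higher, SOX10 among them (adjusted p = 0.038), where 3.16% of all rows were. The list had a summed level of 3425 to 12378 in IsO-like cells and 1630 to 3854 in control cells. The part of such cell types in the differences of channel genes was not tested.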

How the data were processed

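Human H9-derived samples were hybridised to Illumina bead arrays, 3 IsO and 3 control. The submitters' processing notes name GenomeStudio 2011.1, and the genome build is not given in the sources used here. The deposited table holds, per the file headers, a linear intensity for each gene name and array beside a detection p-value, with no background subtracted. Deposited detection p-values of 1-probe rows fall in steps of 1 in 770 (tolerance 0.001 of a step), and 7691 of 34692 rows off those steps combine several probes. The other 27001 include 5309 with a detection p-value of 0 on all arrays, whose spacing cannot be read. The authors' processed table holds log2 intensities of 34685 rows with a column median of 7.23, within 0.00754 of log2 intensities that were quantile-normalised here with no background correction.

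Background was corrected by limma's normexp model (limma 3.58.1, R 4.3.3; offset 16), followed by quantile normalisation and log2. Its background, inferred from the detection p-values of the 27001 rows, had a mean of 122 to 132 and an SD of 20.3 to 24.1 by array. Quantile normalisation sets all arrays to 1 distribution, and the offset compresses differences of dim genes. Rows detected (p below 0.05) on 3 or more of the 6 arrays were tested with lmFit and eBayes, with no covariate, and called at a Benjamini-Hochberg adjusted p below 0.05 over all 14548 rows. Markers were read as above background where detected, and rows of several probes also where they were at least as bright as the dimmest detected 1-probe row of that array. Figures were drawn with matplotlib 3.10.9 in Python 3.11.15.

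Same-numbered IsO and control arrays deviated together (correlations of 0.87, 0.39 and 0.65), so the replicate number was fitted as a block as an alternative. Of the 6 crossed pairs, IsO 3 with control 2 reached 0.70 and IsO 2 with control 3 reached 0.48. A pairing of numbers 2 and 3 is therefore not shown by the data. The labels do not say whether a group's samples are separate cultures; p-values then reflect the spread between these samples alone, which may be technical. Genes named are those called, those above background on all arrays of 1 group and no array of the other, those called with the block, KCNJ13, and in each family the 2 tested genes with the largest differences among those with no overlap. Other tested channel genes are also named, outside that rule, to account for the members of each family. KCNG1, KCNH6 and KCNQ3 were named because of their values, and CACNA1G was named beside the other T-type pores. The members and lists were chosen with earlier results of these data known. The fit without the block was tested on simulated data with independent noise on each array. The blocked fit and the fit of arrays numbered 2 and 3 alone were not simulated. The simulation also left out the deviation that the arrays numbered 1 share. Promoter sequences are RefSeq's, of GRCh38.p14, and 3 of the 4 genes looked up had an entry. Some genes are not reported here.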

Additional observations from a re-analysis of the deposited data

How the results depend on the processing

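With 3 samples a group, counts of calls depended on the samples and the design. Over all rows 189 were called; leaving out 1 sample gave 40 to 158, with 40 without IsO sample 2, 58 without IsO sample 3, 47 without control sample 2 and 42 without control sample 3. The background estimated from all rows gave 101. The replicate block gave 807, the arrays numbered 2 and 3 alone 349, and the block with rows of several probes kept by signal 936. Of the channel genes 1 was called; leaving out 1 sample gave 0 to 1, with 0 without IsO sample 2, IsO sample 3 or control sample 3. No background correction and the authors' processed table each gave 0. Median scaling gave 2 (KCNF1 and KCNJ13), an intensity trend in the variance 2 (KCNJ13 and KCNK12), rows of several probes kept by signal 2, the replicate block 4, the arrays numbered 2 and 3 alone 3 (KCNF1, KCNJ13 and KCNK12), and the block with rows kept by signal 5. With the background from all rows, and without IsO sample 1, the 1 gene called was KCNK12 in place of KCNJ13. The difference between groups in detected genes per array was -1; leaving out 1 sample gave -2.33 to 0.833, the last without IsO sample 3, which turned its sign. The 10 named genes kept their direction in all 187 comparisons with alternatives, but in many of these it could not turn. The groups of these genes do not overlap, so leaving out 1 sample cannot turn the sign. Settings that change only the filter, the block or the variance model return the same difference. Of the 187 comparisons, 12 gained a call and 7, all KCNJ13, lost it. The causes were not tested. The settings with the arrays numbered 2 and 3 alone, and with the block and the signal filter together, were chosen after seeing the data. Of the 137 genes 101 were not tested: 10 of these, in rows of several probes, pass when kept by signal, and signal over background limits the rest.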

Other observations

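Some rows with names close to those of the channel genes fall outside the naming rule. KCNE1L, a potassium channel accessory gene, was above background on all 6 arrays, with log2 levels of 8.84, 9.85 and 9.91 in IsO-like cells, against 9.17, 10.30 and 10.02 in control cells, and differed by -0.29 ± 0.41 (SE; limma adjusted p = 0.951). KCNQ1OT1, a long non-coding RNA from within KCNQ1, was also above background on all 6 and differed by -0.15 ± 0.19 (SE; adjusted p = 0.937), while KCNQ1 itself was detected on no array. SCNN1D, a subunit of the epithelial sodium channel, differed by 0.05 ± 0.59 (SE; adjusted p = 0.996). Its partners SCNN1A, SCNN1B and SCNN1G were above background on no array in either group.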
